A study of Drosophila melanogaster with 2 samples.

Results

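Of 4753 reproducible bbx peaks, 265 (5.58%, 95% Wilson interval 4.96 to 6.26%) had their summit between genes and away from every transcription start site (TSS). They were chosen by position only: the summit lay over 500 bp from every annotated TSS and outside every annotated gene. The 265 peaks formed 256 separate regions, and 18 of them shared a region with another of the 265. The remaining summits comprised 3933 promoter summits, 402 in introns and 153 in exons. The data are chromatin immunoprecipitation with sequencing (ChIP-seq) from whole Drosophila melanogaster embryos aged 0 to 24 h. The embryos were of a bbx-GFP strain, in which bbx is fused to eGFP, and an anti-GFP antibody pulled down the sonicated fragments of 200 to 800 bp. Both samples are biological replicates of the 1 group, so there is no comparison between conditions and no test over samples. A whole embryo mixes all cell types and many stages, the labels do not say what drives the fusion gene, and no untagged sample was analysed here. Peaks were the authors' conservative set, kept at an irreproducible discovery rate (IDR) of at most 0.01 in the comparison of the replicates. Each peak carries the authors' signal for the pooled reads and, in 2 further columns, for each replicate. These are called the first and the second, because no header ties them to replicate numbers. Their values were not matched to the lists of the single replicates. No source states the scale of the signal or the read totals, and the depth is therefore unknown.

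The protein bbx (bobby sox) carries an HMG box, a fold that bends DNA in the minor groove and that SOX and TCF proteins share. Sites between fly genes can be distal enhancers, insulators, start sites missing from the annotation or the regions just past the ends of genes where transcription stops. Fly insulator proteins such as BEAF-32, CTCF and Su(Hw) bind short elements at borders between genes, and Dref binds the DNA replication-related element (DRE), which BEAF-32 recognises in part. Because fly genes are close together, the place of the peaks is given beside that of the allowed bases. These are the 36.3 Mb of the main chromosome arms that meet the same rule on position.

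The sequences under the strongest of the 265 summits carried a few shared elements. Each line gives 60 bp to either side of a summit, on the plus strand of the dm6 assembly, from the RefSeq genome of release 6, named by the genes on both sides. The first 4 are all on chromosome X and are shown because they were 4 of the 10 strongest peaks and share the same short words. In them capitals mark 7 overlapping words of 8 letters, on either strand, that at least 3 of the 10 strongest shared and that hold CGTG or CACG.
Ptp4E and lncRNA:CR44833, chrX:4956040-4956160: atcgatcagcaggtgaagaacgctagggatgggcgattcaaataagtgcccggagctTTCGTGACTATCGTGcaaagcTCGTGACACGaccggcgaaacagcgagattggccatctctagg
CG5254 and CG5273, chrX:758905-759025: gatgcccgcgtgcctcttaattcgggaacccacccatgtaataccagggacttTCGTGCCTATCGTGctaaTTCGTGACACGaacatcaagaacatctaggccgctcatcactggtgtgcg
inc and Mur2B, chrX:1517660-1517780: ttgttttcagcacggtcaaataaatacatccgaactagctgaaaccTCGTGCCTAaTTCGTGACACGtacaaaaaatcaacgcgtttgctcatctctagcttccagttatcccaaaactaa
lncRNA:CR45102 and Rala, chrX:3704218-3704338: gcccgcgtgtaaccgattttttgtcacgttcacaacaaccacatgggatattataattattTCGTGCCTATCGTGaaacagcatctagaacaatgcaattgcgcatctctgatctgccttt
The next 2 are the strongest with a DRE, whose 8 letters TATCGATA are in capitals.
myo and ey, chr4:696865-696985: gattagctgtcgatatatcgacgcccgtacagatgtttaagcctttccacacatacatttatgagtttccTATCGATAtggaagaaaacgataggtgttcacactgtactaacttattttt
CG8565 and ArgRS, chrX:15841517-15841637: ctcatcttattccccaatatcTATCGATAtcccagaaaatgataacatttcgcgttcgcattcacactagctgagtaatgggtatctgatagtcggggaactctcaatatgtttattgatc
The next 2 show the insulator elements, with the CTCF word GGTGGCG and the Su(Hw) word GCATACT in capitals.
zfh1 and wts, chr3R:30789454-30789574: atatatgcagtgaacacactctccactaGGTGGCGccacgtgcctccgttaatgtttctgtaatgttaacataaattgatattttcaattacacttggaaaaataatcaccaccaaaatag
CG34253 and CG13698, chr3L:18088160-18088280: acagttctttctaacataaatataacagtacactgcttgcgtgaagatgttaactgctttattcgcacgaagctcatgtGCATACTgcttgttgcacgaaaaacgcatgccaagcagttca
The GAGA word GAGAGAG, in capitals, is shown where it lies beside a homeobox gene.
CG12689 and ct, chrX:7604767-7604887: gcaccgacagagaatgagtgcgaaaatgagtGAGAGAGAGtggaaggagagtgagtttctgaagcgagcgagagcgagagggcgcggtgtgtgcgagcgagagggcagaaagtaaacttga
The last 2 hold ATTCTACA, in capitals and on the minus strand in the first, a word of 15 of the 265 windows.
asRNA:CR44018 and CG6465, chr3R:10675320-10675440: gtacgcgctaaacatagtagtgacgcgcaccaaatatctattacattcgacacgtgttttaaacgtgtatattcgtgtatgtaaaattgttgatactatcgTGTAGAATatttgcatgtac
alphaTub84B and lncRNA:CR43685, chr3R:7092061-7092181: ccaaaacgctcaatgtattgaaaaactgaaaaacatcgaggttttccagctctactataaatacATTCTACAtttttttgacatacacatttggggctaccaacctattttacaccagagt

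The strongest of the 265 lay between Ptp4E, which encodes a receptor tyrosine phosphatase, and lncRNA:CR44833 on chromosome X (4955971 to 4956234). Its pooled signal was 579, the first replicate column gave 328 and the second 259 (293 ± 48.9, SD, n = 2). The summit was 184 bp past the 3′ end of Ptp4E and 546 bp past that of lncRNA:CR44833, and the nearest TSS, of CG15468, was 5028 bp away. No other summit of the conservative set lay within 47090 bp of it, so it stood alone. The second strongest lay between the start sites of myo, which encodes a TGF-beta ligand, and ey, the fly Pax6 gene needed for the eye, on chromosome 4 (696793 to 697022). Its pooled signal was 536, with 297 in the first column and 242 in the second (269 ± 38.9, SD, n = 2). It was 764 bp from the TSS of ey, whose own promoter summit had a signal of 70.1. The intergenic peak was thus the higher of the pair in the pooled reads.

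The third lay on chromosome X (15841445 to 15841709) in the 608 bp between the 3′ ends of CG8565 and ArgRS, which encodes an arginyl-tRNA synthetase. Its pooled signal was 477, with 231 in the first column and 246 in the second (238 ± 10.2, SD, n = 2). The fourth, between CG5254 and CG5273 on chromosome X (758849 to 759112), had 460 in the pooled reads, 196 in the first column and 267 in the second (231 ± 50.2, SD, n = 2). It was 246 bp past the 3′ end of CG5254 and 629 bp before the TSS of CG5273. The peak between klu, a zinc finger gene of neuroblasts, and Fad2 on chromosome 3L (11011687 to 11011929) had 370 in the pooled reads, 126 in the first column and 233 in the second (179 ± 75.3, SD, n = 2). This pair of values had the largest ratio of the 20 strongest, 1.84-fold. The peak 105 bp past the 3′ end of inc, which encodes a Cullin-3 adaptor that affects sleep, had 368 in the pooled reads, 188 in the first column and 165 in the second (177 ± 16.1, SD, n = 2). The TSS of inc, 4650 bp away, had a promoter summit of its own with a signal of 460.

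The peak between CG43082 and CG7304 (321 pooled, 133 and 208 in the columns, 170 ± 53.4, SD, n = 2) was the last of the 7 that reached the top 10% of all 4753 peaks. The peak between fuss, a Ski and Sno family gene, and toy, a Pax6 gene upstream of ey in eye development, had 252 in the pooled reads, 144 in the first column and 108 in the second (126 ± 25.6, SD, n = 2). The peak between lncRNA:CR45102 and Rala, which encodes a small GTPase, had 229 in the pooled reads, 113 and 120 in the columns (117 ± 4.36, SD, n = 2). Between zfh1, a zinc finger homeodomain gene, and wts, which encodes the Hippo pathway kinase Warts, the gap was 422 bp wide and the 3′ ends face each other. That peak had 207 in the pooled reads, 112 in the first column and 99.1 in the second (106 ± 9.12, SD, n = 2), and wts had a promoter summit with a signal of 443. The other 10 of the 20 strongest ranged from 176 to 204. They lay by SrpRbeta, CG6465, Sumo, for, lncRNA:CR46006, alphaTub84B, toe, ed, RpL17 and psq. Of these, toe is a Pax gene, ed encodes an adhesion protein, psq a transcription factor of the BTB family, for a cGMP-dependent kinase and alphaTub84B an alpha-tubulin. Of the 20, 10 lay within 500 bp of a 3′ end and 6 were on chromosome X, and the first column was the higher in 14.

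**Figure D1:**
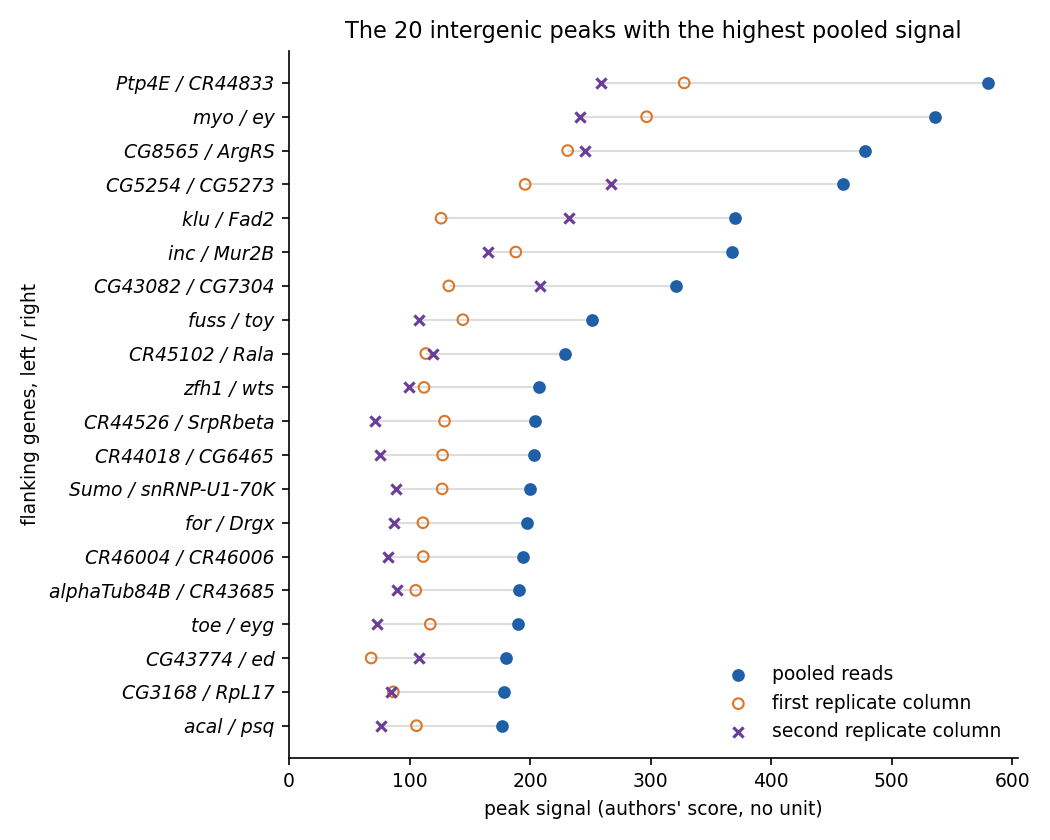
Pooled signal (filled circles) and the signal of the first (open circles) and second (crosses) replicate column, on a linear axis, for the 20 intergenic peaks with the highest pooled signal, named by the genes on both sides. Pooled values run from 176 to 579, and no pair of replicate values differs by more than 1.84-fold.

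As a group the intergenic peaks were weaker than promoter peaks and slightly above intronic ones. Their median pooled signal was 83.8 (quartiles 66.7 and 111, range 4.39 to 579), against 117 at promoters and 74.8 in introns. In the first replicate column the medians were 47.2, 68.5 and 40.5, and in the second 39.9, 54.0 and 35.5, so both columns gave the same order. Of the 265, 56 (21.1%) were above the promoter median, and 7 (2.64%) were in the top 10% of all peaks, compared with 11.8% of promoter peaks. The columns were within 2-fold of each other for 250 of the 265 (94.3%), and the first was higher for 177. Most peaks had 1 width: 247 of the 265 were 356 bp wide. The 18 narrower ones, 92 to 265 bp wide, had a median pooled signal of 216 and included 15 of the 20 strongest. Of promoter peaks, 30.4% were narrower than 356 bp.

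The 3 lowest pooled signals belonged to peaks by CR42794 (6.68), IP3K2 (6.31) and Uhg5 (4.39). In the replicate columns these peaks had 65.0 and 70.8, 42.6 and 37.0, and 38.9 and 59.3. Each of these pairs of values is also that of a stronger conservative peak whose summit lay within 206 bp, so it is no separate replicate measurement of the weak peak. The same held for a peak between fuss and toy, with 9.04 in the pooled reads and 144 and 108 in the columns, as at its neighbour 203 bp away. Of the 265, 19 had both replicate values in common with another conservative peak, and 10 of them were the weaker of the pair in the pooled reads, all at 45.0 or below.

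**Figure D2:**
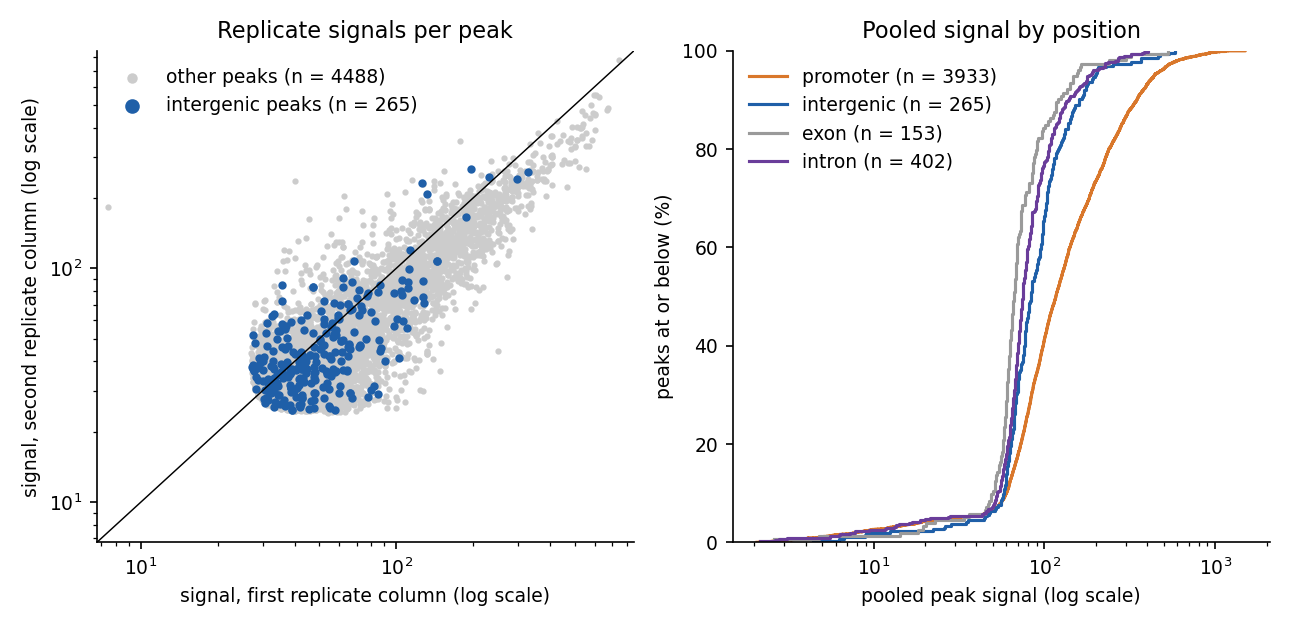
Left, signal in the second against the first replicate column for each peak, on log axes, with the 265 intergenic peaks in blue, all others in grey and the line of equal values in black. Right, the share of peaks at or below a pooled signal (log axis) by position: the intergenic curve (median 83.8) lies between those of intronic (74.8) and promoter peaks (117).

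Being called from the comparison of replicates does not require a peak in each replicate's own thresholded list. Replicate 1's list overlapped 159 of the 265 by at least 1 bp (60%, interval 54.0 to 65.7%), against 77.4% of all conservative peaks. Replicate 2's list overlapped 136 (51.3%, 45.3 to 57.3%), against 64.6% of all. Both lists overlapped 95 (35.8%), against 57.6% of all, and 65 (24.5%) were in neither, against 15.6% of all and 37.1% of intronic peaks. The longer ranked lists overlapped 260 and 261 of the 265 (98.1% and 98.5%), near the 99.8% and 99.3% of all conservative peaks. Of the 36 intergenic peaks with a pooled signal under 60, 38.9% were in the list of replicate 1 and 22.2% in that of replicate 2. The 36 include the 10 weaker peaks with shared replicate values, which a stronger neighbour's replicate peak can overlap. Shares in this band may therefore count peaks of such neighbours. From 60 to 80 the shares were 33.7% and 26.7%, and from 150 upwards 100% and 96.8%, so the strong peaks were nearly all in both lists. Promoter peaks had the higher share under 60 in both lists (57.0% and 42.0%) and also from 100 to 150, where it was 94.5% and 81.0% against 84.5% and 72.4% of intergenic peaks. From 60 to 80 and from 80 to 100 promoter peaks were higher in replicate 1 (48.0% and 79.1%, against 33.7% and 66.7%) and lower in replicate 2 (22.0% and 51.3%, against 26.7% and 61.1%).

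**Figure D3:**
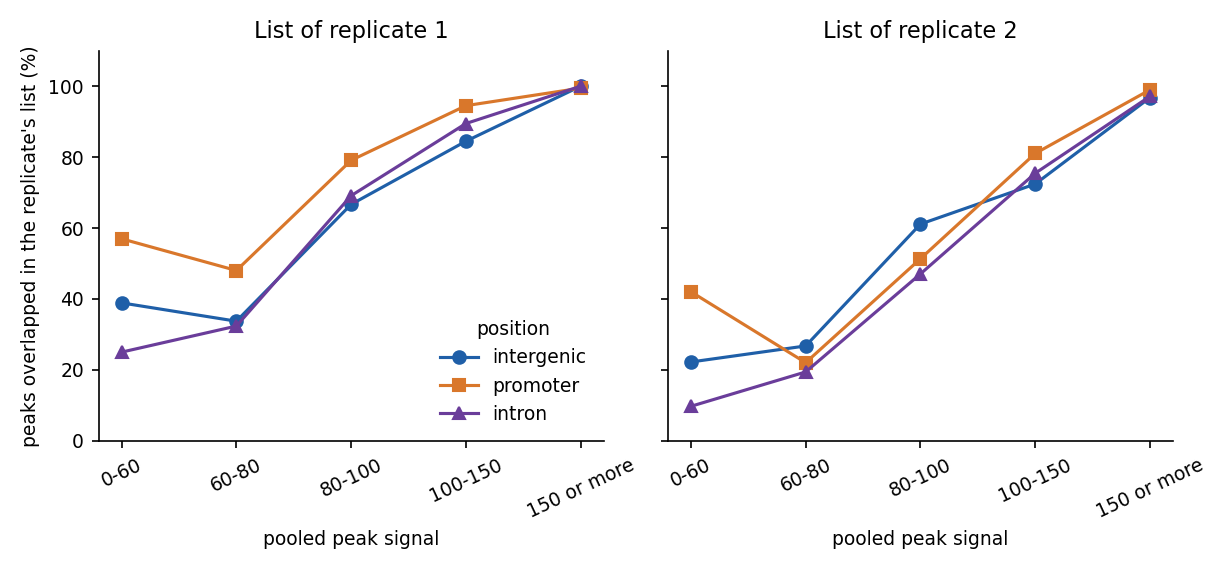
Share of conservative peaks overlapped by at least 1 bp in the thresholded list of replicate 1 (left) and replicate 2 (right), by band of pooled signal, for intergenic, promoter and intronic peaks. From a signal of 150 upwards intergenic peaks reach 100% and 96.8%, and from 60 to 80 they reach 33.7% and 26.7%.

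Although promoters were excluded, intergenic peaks stayed close to genes. The median distance to the nearest TSS was 1695 bp (quartiles 784 and 3601, range 502 to 34579), compared with 5554 bp for the allowed bases. The nearest gene end of either kind was a median of 676 bp away, compared with 4186 bp. Of the 265, 84 (31.7%, 26.4 to 37.5%) had a TSS within 1 kb, where 7.79% of allowed bases lie. Only 18 (6.79%) were over 10 kb from a TSS, where 35.1% of allowed bases lie. The gap between the flanking genes had a median width of 5301 bp, compared with 19272 bp for allowed bases, and 79 peaks (29.8%) lay in gaps under 2 kb, which hold 4.03% of allowed bases.

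A second concentration was at 3′ ends. Within 500 bp past the 3′ end of a gene lay 90 peaks (34.0%, 28.5 to 39.9%), where 6.27% of allowed bases lie, 5.41 times the share of the bases. With letters soft-masked as repeats left out on both sides, the shares were 34.2% and 6.74%. Some of the 90 also lay near the TSS of the next gene, but 42 of them were over 2 kb from any TSS (15.8% of the 265, against 2.03% of allowed bases). Where a 3′ end was the nearest gene end, there were 43.6 peaks per Mb of allowed bases within 250 bp of it (exact 95% Poisson interval 32.8 to 56.7) and 34.6 from 250 to 500 bp (24.1 to 48.1). The density was 14.3 from 500 to 1000 bp (9.06 to 21.5) and 1.41 from 2000 to 5000 bp (0.517 to 3.07). Where a 5′ end was nearest, it was 30.6 from 500 to 1000 bp (23.2 to 39.6), above the value on the 3′ side at that distance. It was 5.30 from 2000 to 5000 bp (3.36 to 7.96), again higher than on the 3′ side. The 90 peaks near 3′ ends had a median pooled signal of 98.4, and the other 175 had 78.4, with 56.9 against 42.5 in the first column and 46.4 against 37.4 in the second. Of the 265, 34 (12.8%) also reached into a gene with part of their width, and the share within 500 bp of a 3′ end among peaks wholly outside genes was 24.2%. Leaving out such peaks takes out mostly peaks beside a 3′ end. Every summit is over 500 bp from a TSS and none of the 265 is wider than 356 bp.

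**Figure D4:**
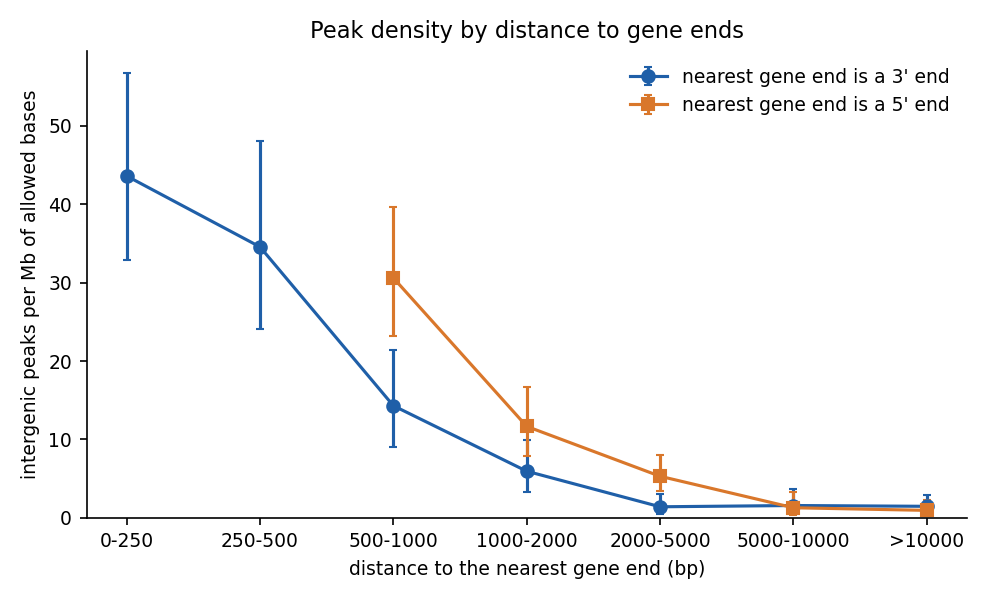
Intergenic peaks per Mb of allowed bases (linear axis from 0) by distance to the nearest gene end, where that end is a 3′ end (blue) or a 5′ end (orange), with exact 95% Poisson intervals. Density is 43.6 within 250 bp of a 3′ end and 30.6 at 500 to 1000 bp from a 5′ end, and from 5000 bp outwards it is under 1.6 on either side.

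The shares of convergent and tandem gaps were close to those of the allowed bases, and the share of divergent gaps was somewhat higher. Convergent gaps, with both 3′ ends inwards, held 67 peaks (25.3%, against 25.7% of allowed bases). Tandem gaps held 130 (49.1%, against 50.2%), and divergent gaps, with both 5′ ends inwards, held 68 (25.7%, 20.8 to 31.2%, against 20.4%). Short gaps of any orientation held more than their share: gaps under 2 kb held 29.8%, against 4.03% of allowed bases, and gaps of 2 to 5 kb 18.9%, against 8.72%. This included short divergent and short convergent gaps, and short tandem gaps were not counted apart. Divergent gaps under 5 kb held 31 peaks (11.7%, against 2.59%), and convergent gaps under 2 kb held 28 (10.6%, against 1.53%). The median pooled signal was 98.8 in convergent gaps, 80.4 in tandem and 76.7 in divergent ones.

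At the edge of the rule, the nearest members were the peaks by H15, a T-box gene of the embryonic heart and ventral appendages, 502 bp from its TSS (170 in the pooled reads, 85.3 and 79.3 in the columns), by Npc2b at 505 bp (95.2, 47.7 and 46.3) and by CG34054 at 512 bp (70.3, 27.6 and 37.3). Just outside were peaks by lectin-28C at 499 bp (123, 55.8 and 74.99), Rcd2 at 498 bp (414, 255 and 155) and rau at 496 bp (64.9, 35.1 and 34.9). Signals on both sides of the limit overlapped. The 1811 promoter summits that also lay outside every gene had a median pooled signal of 163.

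At the far end, 22 of the 265 (8.30%) had no gene within 5 kb, where 46.9% of allowed bases lie. The farthest, between CG10651 and lncRNA:CR40341 on chromosome 2L (20213282 to 20213637), was 34579 bp from the nearer of them and had 56.1 in the pooled reads, 37.7 and 34.5 in the columns (36.1 ± 2.29, SD, n = 2). Next came the peak between CG41099 and CG42402, 24983 bp away (98.6, with 37.2 and 56.5 in the columns). The peak between ems, a head gap gene, and Art9 was 17433 bp from ems (67.1, with 36.1 and 34.0). The peak between Su(z)2 and CG13323 was 15805 bp from the nearer gene (64.0, with 32.0 and 29.3), and the one between lncRNA:CR42836 and CG5023 was 14579 bp away (71.8, with 35.2 and 35.8). These 5 were all below the median of promoter peaks, as were most of the 265, of which 56 were above it. In the pooled reads distant peaks were not weaker as a group, but the 2 columns gave opposite orders. The 18 over 10 kb from a TSS had a median pooled signal of 92.7, against 80.4 for the 84 within 1 kb and 83.8 for all 265. In the first column the 18 had 43.0, against 50.3 for the 84, and in the second 40.9, against 37.2. The bbx gene itself, on chromosome X (21363028 to 21373145), had none of the 265 within 100 kb, and the nearest, with a signal of 57.7, was 328159 bp away.

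Many genes next to an intergenic peak also had a promoter summit. The nearest TSS belonged to 239 distinct genes, of which 89 (37.2%, 31.4 to 43.5%) had a promoter summit themselves, against 25.9% of all genes. Among the 197 protein-coding ones it was 79 (40.1%, 33.5 to 47.1%), against 30.8% of all protein-coding genes. Of the 104 genes whose 3′ end lay within 500 bp of a member, 52 (50%, 40.6 to 59.4%) had a promoter summit. Of the 457 genes flanking a member on either side, 166 (36.3%, 32.0 to 40.8%) had one, against 25.9% of all genes. At 161 of the 265 (60.8%) at least 1 flanking gene had one, at 29 both had, and at 104 neither had. For these counts per pair of genes, no share over all neighbouring pairs was computed. The nearest promoter summit was a median of 9136 bp away, and 78 peaks had none within 20 kb.

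The nearest TSS was that of a protein-coding gene for 220 peaks (83.0%, 78.0 to 87.1%, against 66.8% of allowed bases), of a non-coding RNA gene for 42 (15.8%, against 26.1%), of a snoRNA for 2 and of a pseudogene for 1. For tRNA, snRNA and rRNA genes it was 0 of 265, which allows a share of up to 1.13% when 3 counts are taken as the limit of a count of 0 (Wilson upper bound 1.43%). Among lists of developmental genes, Hox and segmentation genes had the nearest TSS of 4 peaks (1.51%, against 0.870% of allowed bases): the head gap genes btd (101, with 32.8 and 62.5 in the columns), oc (72.9, 30.3 and 41.7) and ems, and the segment polarity gene en (87.0, 55.8 and 34.6), 1458 bp from its TSS. Of the 4, btd, oc and ems were 13801 to 20200 bp from that TSS. Genes of muscle and mesoderm had the nearest TSS of 5 (1.89%, against 0.313%). They were H15, eya, a nuclear phosphatase and cofactor (107, with 65.1 and 47.2 in the columns), bap, a homeobox gene of the visceral mesoderm (84.0, 31.3 and 46.4), bin, its forkhead partner there (66.7, 38.7 and 30.8), and slou, a muscle identity gene. Neural genes had 3 (1.13%, against 0.405%), the pair at klu and 1 by comm, a regulator of axon crossing at the midline (116, 56.7 and 50.7). Genes of signalling ligands had 1 (0.377%, against 0.474% of allowed bases), by Wnt4 in the gap shared with wg (69.7, 36.6 and 45.1), and HMG box genes had 1 (0.377%, against 0.218%), by Sox102F on chromosome 4 (143, 62.0 and 83.0). Genes of dorsoventral patterning had 0, against 0.137%. All these counts are small, and none was tested.

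For homeobox genes, a list added after the values were seen, the nearest TSS gave 14 peaks (5.28%, against 2.16% of allowed bases) at 14 genes, with pooled signals from 22.4 to 536. Apart from ey and toe, they included ct (150, with 98.4 and 56.9 in the columns), E5 (120, 35.6 and 84.8) and so (112, 59.4 and 63.0). The peaks by en, oc, ems, bap and slou are among the 14 and were already counted in the lists above. For ribosomal protein genes it gave 3 (1.13%, against 0.438%), a pair by RpS23 and 1 by RpL37-1 (110, 60.7 and 48.7). The miRNA genes mir-1013, mir-2281 and mir-14 had 1 each (1.13% together, against 1.18% of allowed bases), and long non-coding RNA genes had 39 (14.7%, against 24.9%).

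Taking summits at most 10 kb apart, 54 of the 265 (20.4%) fell into 24 clusters and 211 stood alone. With overlapping peaks merged there were 17 clusters, at an IDR of at most 0.001 there were 8, in the series' other thresholded set 42 and with protein-coding genes only 56, so the number depends on the peaks and genes used. Of the 24 clusters, 4 held 3 or more summits. The largest, 5 summits of 4 separate regions in 2908 bp on chromosome 2R, lay between lncRNA:acal and psq, 681 to 3589 bp before the TSS of psq. From far to near that TSS their pooled signals were 83.4, 45.9, 35.8, 65.2 and 176, so the nearest was the strongest. In the replicate columns that nearest one had 106 and 76.6 (91.2 ± 20.6, SD, n = 2), while the other 4 ranged from 27.3 to 43.2. Between alphaTub84B and lncRNA:CR43685, 3 summits had pooled signals of 113, 34.9 and 191, the first 200 bp past the 3′ end of alphaTub84B and the last 226 bp past that of lncRNA:CR43685. The weakest was thus the one in the middle of the gap.

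The other 2 clusters of 3 were on chromosome 4. Between Asator, which encodes a tau-tubulin kinase, and zfh2, a zinc finger homeodomain gene, the 3 pooled signals were 66.1, 105 and 56.1, and both genes had a promoter summit (185 and 88.2). Between fuss and toy they were 252, 9.04 and 63.0, and neither gene had a promoter summit. These 3 summits made only 2 separate regions, since 2 of the peaks overlap. Pairs of intergenic summits lay by the neighbouring Polycomb group genes Psc (77.4 and 106) and Su(z)2 (61.9 and 66.1), and by ed (59.7 and 180). Over all conservative peaks, 63 of the 265 had another summit within 1 kb and 142 within 5 kb, and 105 had a promoter summit within 5 kb.

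Per Mb of allowed bases, chromosome 4 had 36.7 intergenic peaks (9 peaks in 0.245 Mb), and the other arms had 5.96 (2L, 40 peaks) to 8.19 (2R, 61 peaks), with 7.63 on X (40 peaks). Of promoter peaks, chromosome 4 had 10.4 per Mb of its length and the whole set 29.4. On chromosome 4 the 9 peaks lay in few gaps, since 6 of them formed the 2 clusters above. Their median pooled signal was 105, and it was 97.8 on X and 77.2 on 3R. Repeats held few of the 265: 37 summits (14.0%) were soft-masked, against 26.7% of allowed bases, and 9 (3.40%) lay in an annotated transposable element, against 10.9%.

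The sequence around the summits was compared in windows of 100 bp to either side, on both strands, with all 180374 non-overlapping windows of allowed bases. DRE was in 22 of the 265 windows (8.30%, 5.55 to 12.2%), in 20.3% of promoter windows, 2.49% of intronic ones and 0.447% of allowed windows. It was in 6 of the 20 strongest, and the 22 peaks with it had a median pooled signal of 113, against 81.0 for the others. The core CGATA, which DRE contains, so that both counts overlap, was in 98 windows (37.0%, against 61.6% at promoters and 19.98% of allowed windows). Both shares lay between those of promoters and of the bases around.

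The order was different for insulator and GAGA words. The CTCF word GGTGGCG was in 17 windows (6.42%, 4.04 to 10.03%), against 2.64% at promoters, 4.73% in introns and 1.71% of allowed windows. The peaks at klu, zfh1 and wts, and SrpRbeta, all among the 20 strongest, held it. The Su(Hw) word GCATACT was in 12 (4.53%, 2.61 to 7.75%), against 1.22% at promoters, 2.49% in introns and 1.95% of allowed windows. GAGAGAG, a word of GAGA factor and Pipsqueak that can overlap itself, was in 27 (10.2%, 7.1 to 14.4%), against 5.70% at promoters, 16.7% in introns and 2.18% of allowed windows. None of the 20 strongest held it, and 4 of the 90 peaks near 3′ ends did (4.44%), against 13.1% of the others. The promoter word GGTCACAC of M1BP was in 6 (2.26%), against 8.52% at promoters and 0.265% of allowed windows.

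Words of the HMG box families were near the level of the bases around. The SOX word AACAAT was in 54 windows (20.4%, 16.0 to 25.6%), against 21.2% of allowed windows and 22.3% at promoters. The TCF word CTTTGATC was in 0, which by the limit of 3 counts allows a share of up to 1.13%, against 0.508% of allowed windows. The homeodomain word TAATTA was in 16 (6.04%, 3.75 to 9.58%), against 9.66% at promoters, 7.96% in introns and 14.3% of allowed windows. All 3 groups of peaks were thus below the bases around. The early activator Zelda's word CAGGTAG was in 1 (0.377%), against 0.864% at promoters, 2.74% in introns and 0.884% of allowed windows. The median GC content was 41.8% in the 265 windows, 42.3% at promoters, 47.8% in introns and 40.8% in allowed windows, and its part in these shares was not tested.

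**Figure D5:**
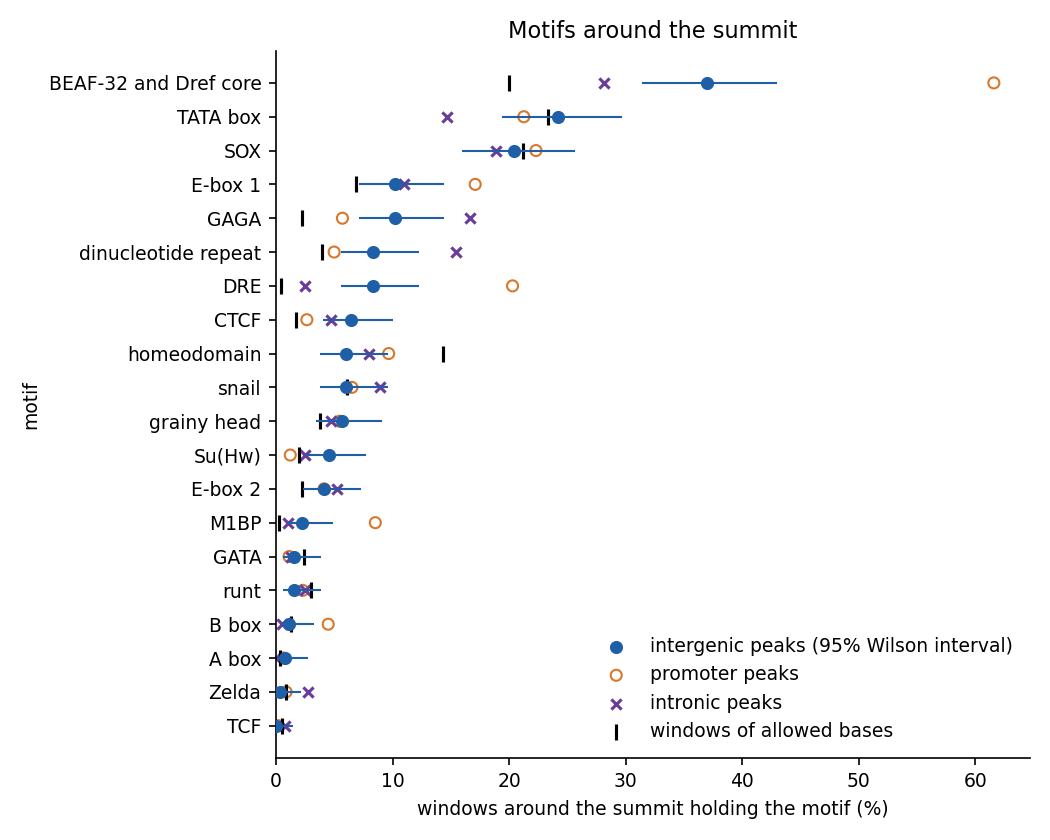
Share of windows of 100 bp to either side of a position that hold each motif, by name, around intergenic summits (blue, with 95% Wilson intervals), promoter summits (open circles), intronic summits (crosses) and in allowed windows (black ticks). DRE is at 8.30% in intergenic, 20.3% in promoter and 0.447% in allowed windows, and CTCF at 6.42%, 2.64% and 1.71%.

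The words in capitals at the 4 strong peaks of chromosome X were next compared with all other windows. They were found by comparing the strongest windows, so their counts are a description. The word CTATCGTG was in 4 of the 265 windows (1.51%), 3 of them among these 4 peaks, in 0.992% of promoter windows and in 0.150% of allowed windows. CGTGACAC was in 6 (2.26%), against 0.890% at promoters and 0.226% of allowed windows, and CGTGCCTA in 3 (1.13%), against 0.407% and 0.149%. Other words that 3 of these 4 peaks shared were common at promoters or in the bases around: CATCTCTA was in 3.02% of the 265, 4.93% of promoter and 0.378% of allowed windows, and TGTTTAAA in 2.26%, 2.62% and 2.26%. All 4 peaks were under 356 bp wide and lay within 500 bp of the 3′ end of a gene. The next conservative summit was 4770 bp away at inc, 11002 bp at CG5254, 14917 bp at Rala and 47090 bp at Ptp4E. The word ATTCTACA, shared by 4 of the 20 strongest windows, was in 15 of the 265 (5.66%). It was in 0.737% of promoter, 1.74% of intronic and 0.607% of allowed windows. Of these 15, 7 lay within 500 bp of a 3′ end (90 of all 265 did), among them the peaks past lncRNA:CR43685 and CG6465. This word too was picked from the strongest windows, so its counts are a description and the signals of its peaks are not compared.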

How the data were processed

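Peaks came from anti-GFP ChIP-seq on 2 biological replicates of bbx-eGFP embryos. The authors called them against a control alignment on dm6 and compared them by IDR, per the deposited text files. No header or label names the aligner or peak caller. Peak signal is a deposited value of the authors, 1 per peak, for pooled reads or 1 replicate. The deposited −log10 values of the IDR served only for the alternative of an IDR of at most 0.001. The depth per sample is unknown. Intervals cover counting error only.

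Genes and TSSs came from Ensembl release 115, with transposable element genes left out and miRNA genes taken by their precursors. Positions are 1-based, on 2L, 2R, 3L, 3R, 4 and X. Allowed bases were sampled every 10 bp, and motif words were searched within 100 bp of the summit. No test was run, since peaks are not replicates and there is 1 group. The rule on position, the flanking genes, the clusters and the merging of peaks were tested on simulated data, and the other steps were not. Named were the 20 strongest peaks, the 3 weakest, the 5 farthest from genes, 3 on each side of the 500 bp limit, clusters of at least 3, and up to 4 peaks per gene list. Peaks holding a shared word or printed for a motif, and some pairs of peaks, were named after their values were seen. The members and lists were chosen with earlier results of these data known, and the homeobox list, the 3′ end share and the shared words of 8 letters were added after seeing values. Alternatives were another IDR set or limit, merged peaks, other TSS distances, gene sets, cluster distances, windows and overlaps, and each replicate alone. Software was SciPy 1.17.1, pandas 2.3.3 and NumPy 2.4.6 in Python 3.11.15, with Matplotlib 3.10.9 for figures.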

Additional observations from a re-analysis of the deposited data

How the results depend on the processing

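The number of intergenic peaks was 265. It was 101 at an IDR of at most 0.001 and 400 with protein-coding genes only, and 187 to 229 in the list of 1 replicate alone. Summits at the same base as 1 of the 265 were 265 of those 400, 234 of 343 in the series' other set, and 13 of 187 and 17 of 229 in the single-replicate lists. As a share of all peaks it was 3.68% at the stricter IDR, 7.85% and 3.81% with TSS distances of 200 and 1000 bp, 4.86% with the whole peak outside genes, 8.42% with protein-coding genes only and 4.95 to 5.61% without 1 replicate. The median signal was 76.1 in the series' other thresholded set, 125 at the stricter IDR and 94.4 with protein-coding genes only. It was 47.2 to 52.0 in the lists of 1 replicate, whose signal is that of 1 replicate. The median TSS distance was 900 and 2750 bp with TSS distances of 200 and 1000 bp, which set its lower limit, and 2433 bp with protein-coding genes only, and it was 1638 to 1953 bp without 1 replicate. Divergent gaps held 19.3% with 1000 bp and 19.7% with transposable element genes counted, and 20.9 to 23.1% without 1 replicate. There were 42 clusters in the other set, 8 at the stricter IDR, 15 with 1000 bp, 56 with protein-coding genes only and 16 to 26 without 1 replicate. DRE was in 14.9% at the stricter IDR and in 8.30 to 8.56% without 1 replicate. The share within 500 bp of a 3′ end was 48.5% at the stricter IDR and 34.8 to 37.1% without 1 replicate. It was 24.2% with the whole peak outside genes, a limit that takes out mostly peaks beside a 3′ end. Where no cause is given, it was not tested. The other values, 63 of 88, stayed within the interval of the main value, or for counts within 1.5 times of it. The share of allowed bases was not recomputed under the alternatives. Unknown depth limits all counts of peaks. No paired analysis was possible because both samples belong to 1 group.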
